A study of Homo sapiens with 4 samples.

Results

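The protocadherin beta cluster is a tandem array of PCDHB genes on chromosome 5. It was taken here as every CpG listed between positions 140400001 and 140650000 of hg19 (chr5:140400001-140650000), a stretch of 250 kb that holds 3910 of the 27710999 CpGs listed on the autosomes and X. CpGs were taken by position, and the interval itself was chosen with earlier results of these data known. It holds the 16 protein-coding PCDHB genes, PCDHB1 to PCDHB16, and the pseudogenes PCDHB17P, PCDHB18P and PCDHB19P, all on the plus strand. The cells were HEK293T, a human embryonic kidney line that carries the SV40 large T antigen. WT cells were compared with ZNF274KO cells, in which CRISPR-Cas9 cuts on both sides of the gene had deleted ZNF274 homozygously, and each genotype had 2 libraries. The knockout lines were raised from single sorted cells. The labels do not say whether the 2 libraries of a genotype came from separate clones or cultures, so p-values measure only the spread between these libraries. CpG methylation was read by EM-seq (enzymatic methyl sequencing). Enzymes convert unmethylated cytosines, which are then read as T, while methylated and hydroxymethylated cytosines are both read as C. The level of a CpG or region is the percentage of its reads that carried C. Read counts of a region are summed over its CpGs, so a read that covers several CpGs is counted at each.

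Clustered protocadherins are cell adhesion proteins of the neuronal surface. Each neuron expresses a few of them, and their combination lets it tell its own branches from those of other cells. PCDHB genes are unusual in that a single exon with its own promoter encodes the whole protein, with no constant exons shared between genes as in the alpha and gamma clusters. Most clustered protocadherin promoters carry a conserved element that the architectural protein CTCF binds, and methylation of that element is known to hinder the binding. ZNF274 is a KRAB zinc finger protein, a family that recruits the histone methyltransferase SETDB1 through TRIM28.

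The ZNF274 gene carried 5158 and 4274 reads over its 501 CpGs in WT 1 and WT 2, 0 in ZNF274KO 1 and 14 in ZNF274KO 2. Summed over CpGs genome-wide, the read counts of a library lay between 241598512 and 295114493, and the genome-wide level between 58.4% and 60.4%. In the beta interval the summed counts lay between 28988 and 35623, with a median of 7 to 9 reads per listed CpG. Levels of single CpGs are therefore coarse, and reads were summed over genes, tiles and other regions. PCDHB genes resemble each other in sequence: 67.5% of the CpGs in the genes and 88.1% of those outside had surroundings of 100 bases that occur once in the converted genome, and reads at the others could come from another gene of the family.

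The starts of 16 of the 19 PCDHB genes and pseudogenes held the sequence GTGGCGCT on the gene's own strand within 400 bases of the annotated start, and none held it on the other strand. No 8-base sequence with a CpG was found at more of these starts, and GGTGGCGC, which overlaps it, was found at as many. It resembles the core of the conserved element named above; binding of CTCF was not measured here. Of 20098 protein-coding starts, 1.98% held it on the strand of the gene and 3.50% on either strand in windows of the same size. It was picked for its frequency at the PCDHB starts, so an excess over these shares was set by that choice. Some sequences without a CpG were at more of the starts, such as AGGCAAGT at 19. GTGGCGCT was not at every start. PCDHB1, PCDHB6 and PCDHB19P lacked GTGGCGCT. The stretches below, on the plus strand of GRCh37, show GTGGCGCT in capitals. They are 4 genes whose CpG in it carried no methylated read in any library (PCDHB2, PCDHB16, PCDHB11 and PCDHB15) and the 4 starts where that CpG carried some.
PCDHB2: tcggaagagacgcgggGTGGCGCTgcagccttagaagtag
PCDHB16: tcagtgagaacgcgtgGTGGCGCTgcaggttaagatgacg
PCDHB11: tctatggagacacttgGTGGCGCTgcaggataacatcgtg
PCDHB15: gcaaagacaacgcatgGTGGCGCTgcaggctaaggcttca
PCDHB4: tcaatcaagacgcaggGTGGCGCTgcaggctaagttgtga
PCDHB7: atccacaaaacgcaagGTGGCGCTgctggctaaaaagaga
PCDHB14: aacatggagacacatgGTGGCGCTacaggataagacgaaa
PCDHB17P: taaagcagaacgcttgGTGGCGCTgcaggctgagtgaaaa
These lie at chr5:140474125-140474164, chr5:140561881-140561920, chr5:140579099-140579138 and chr5:140624878-140624917 for the first 4, and at chr5:140501301-140501340, chr5:140552143-140552182, chr5:140602831-140602870 and chr5:140535320-140535359 for the others. Across the 16 starts the shared sequence began between 258 bases and 1 base before the annotated start of the gene.

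The beta interval was more methylated in both ZNF274KO libraries than in either WT library. Its level was 38.2% in WT 1 and 38.3% in WT 2, against 60.6% in ZNF274KO 1 and 48.3% in ZNF274KO 2. The WT libraries lay close together, and the ZNF274KO libraries stood apart from them and from each other. The group means were 38.3% ± 0.0602 and 54.5% ± 8.65 (SD, n = 2 each), a difference of 16.2 percentage points with an exact two-sided permutation p of 0.333, the smallest that 2 libraries against 2 can give. ZNF274KO 1 lay 22.3 points above the WT mean and ZNF274KO 2 10.1 points above it. Over the whole of chromosome 5 the levels were 56.0%, 57.8%, 57.5% and 55.6% in the same order, with no gap between the genotypes. Reads from the 2 strands of the DNA gave like levels in the interval, 61.6% and 59.5% in ZNF274KO 1 and 48.9% and 47.7% in ZNF274KO 2.

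**Figure D1:**
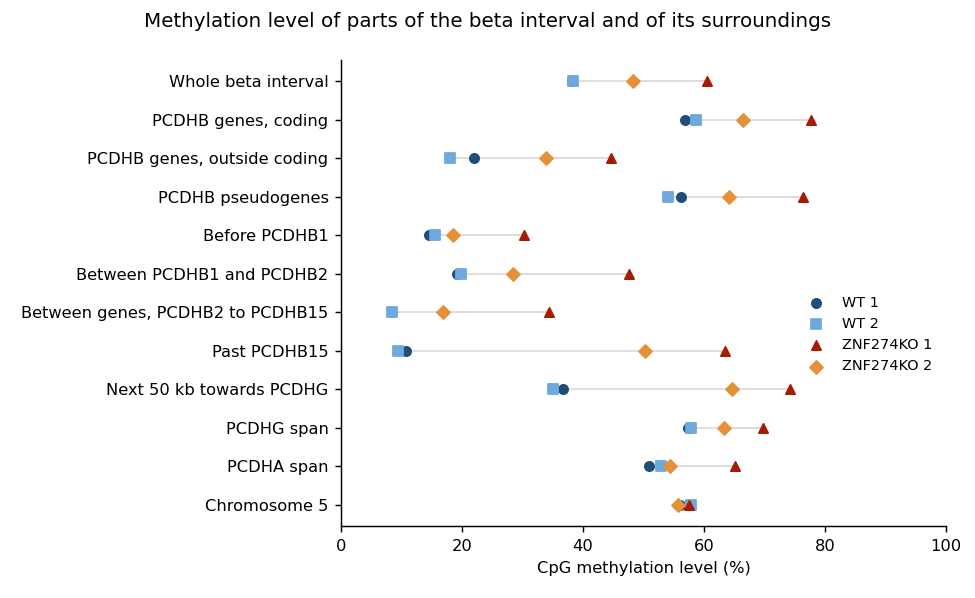
Methylation level (%) of the beta interval, of its parts and of its surroundings; each point is 1 library, and each row is 1 region summed over its CpGs. Both ZNF274KO libraries exceed both WT libraries in every row but that of chromosome 5, and the widest gap is past PCDHB15, where the means are 10.1% and 56.8%.

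Genes and the sequence between them started from different levels. The 16 genes cover 26.2% of the interval but hold 57.4% of its CG pairs, at 34.4 per kb against 9.05 per kb outside them. In WT, the genes had a level of 52.8% ± 0.688 (SD, n = 2) and the remaining sequence, with the pseudogenes left out, 12.6% ± 0.263. In ZNF274KO the genes stood at 67.2% ± 7.78 and the remaining sequence at 31.7% ± 11.7. The gap between genes and remaining sequence was 39.8 and 40.4 points in the WT libraries and 32.8 and 38.3 points in the ZNF274KO libraries, narrower in both, and the differences did not overlap (exact permutation p = 0.333). When CpGs whose 50-base surroundings recur were left out, the difference between the genotypes in that gap went from -4.60 to -1.39 points and the libraries overlapped.

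The higher levels in ZNF274KO were also seen CpG by CpG. Of the 953 CpGs of the interval outside genes and pseudogenes covered by 5 or more reads in each of the 4 libraries, 69.2% and 66.9% carried no methylated read in WT 1 and WT 2. In ZNF274KO 1 and ZNF274KO 2, 22.8% and 44.2% carried none. Levels under 20% were found at 39.1% and 61.7% of these CpGs in ZNF274KO 1 and ZNF274KO 2, against 80.6% and 81.1% in WT. Intermediate levels were more common than high ones. In the ZNF274KO libraries 46.4% and 30.5% lay between 20% and 80%, and 14.5% and 7.76% above 80%. In WT 14.4% and 14.2% lay between 20% and 80%, and 5.04% and 4.72% above 80%. Of the 1243 such CpGs in genes, 51.6% and 39.98% lay above 80% in ZNF274KO, against 30.2% and 30.7% in WT.

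In every one of the 16 gene bodies the lower ZNF274KO library was above the higher WT library. Differences between group means ran from 9.72 points at PCDHB2 to 19.7 points at PCDHB14, with a median of 14.9. Summarised instead by the 75th percentile of CpG levels averaged over the libraries of a genotype, all 16 were again higher, by 0.268 to 16.7 points with a median of 7.08. Genome-wide, the same order held in 9.09% of 19828 gene bodies, and the median difference was -0.931 points. In edgeR's quasi-likelihood test with Benjamini-Hochberg adjustment over all gene bodies, 2 of the 16, PCDHB8 and PCDHB15, passed the threshold of 0.05, both higher, against 0.918% of all gene bodies called and 0.888% called higher. All 16 had an unadjusted p below 0.05 in that test, as did 1430 of the 19828 bodies. The adjusted p of PCDHB14, which had the largest difference, was 0.0534 in edgeR, and the highest was 0.566 at PCDHB2.

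PCDHB8 rose from 52.5% and 51.3% in the WT libraries to 73.7% and 69.1% in the ZNF274KO libraries. The change was 19.5 points, or 1.21 ± 0.219 (SE) on the log2 odds scale, with an edgeR adjusted p of 0.0116. Its 2 ZNF274KO libraries lay closer together than those of any of the other PCDHB bodies. Only 50.8% of its CpGs were unique over 100 bases, and over those alone the difference was 26.7 points. PCDHB15, the last gene towards the gamma cluster, rose from 53.0% and 54.1% to 74.1% and 66.9%, a change of 16.9 points or 1.06 ± 0.213 on the log2 odds scale (edgeR adjusted p = 0.0275), and 77.1% of its CpGs were unique. Each library was also left out in turn, which leaves 1 library in a group, assumed to vary like those of the other genotype. Without ZNF274KO 1 neither gene was called (98 of all gene bodies were) and the median difference over the 16 bodies was 9.31 points. Without ZNF274KO 2 it was 21.0 points, PCDHB8 lost its call and 9 bodies were called, against 217 of all gene bodies. Without WT 1, 9 were called against 229 of all, and without WT 2, 8 against 224, where the fit to all libraries called 182. With limma in place of edgeR 0 of the 16 were called and 57 of all gene bodies, 0.272% of them called higher.

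PCDHB14 had levels of 45.4% and 47.5% in WT and 73.5% and 58.8% in ZNF274KO. Its ZNF274KO libraries lay far apart from each other, though both were above WT. PCDHB2, the smallest difference, had 56.7% and 59.3% in WT and 74.3% and 61.2% in ZNF274KO, so that ZNF274KO 2 lay just above WT 2. PCDHB1 lies apart from the rest on the alpha side. It had the lowest WT level of the genes, 29.6% and 29.4%, with 45.8% and 35.5% in ZNF274KO, and 98.1% of its CpGs were unique. PCDHB3 had the highest, 62.5% and 70.1% in WT and 82.9% and 75.7% in ZNF274KO. In all 16 bodies ZNF274KO 1 was above ZNF274KO 2, with medians of 21.0 and 9.31 points above the WT mean.

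Restricting the levels to CpGs whose 100-base surroundings occur once left all 16 bodies higher, with a median difference of 15.98 points, and restricting them to 50 bases gave 17.2 points. The 3 pseudogenes, which keep the sequence of a PCDHB exon but no intact reading frame, had levels like those of the genes. PCDHB19P had 51.3% and 47.9% in WT and 77.9% and 65.7% in ZNF274KO, with 96.3% of its CpGs unique. PCDHB17P had 56.1% and 54.9% against 75.1% and 60.8%, and PCDHB18P 59.3% and 57.8% against 76.2% and 65.6%. The groups did not overlap in any of them; pseudogenes were not among the protein-coding bodies that were tested.

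**Figure D2:**
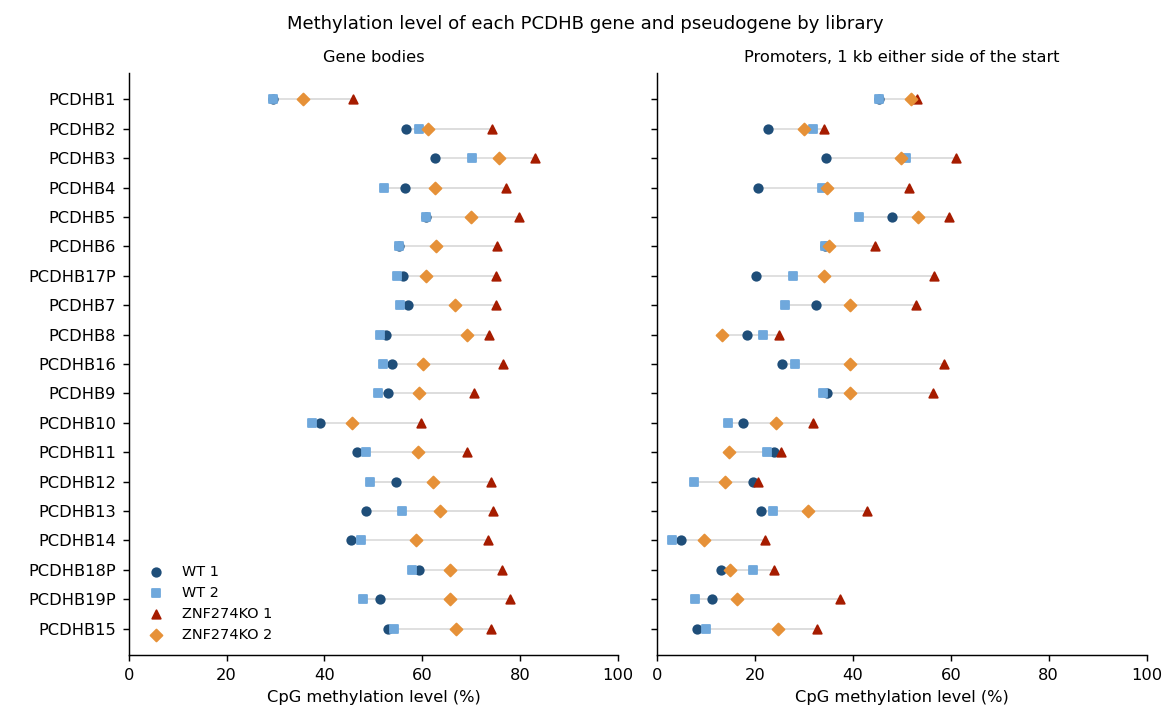
Methylation level (%) of each PCDHB gene body (left) and promoter (right), in the order of the chromosome; each point is 1 library and grey lines join the 4 libraries of a gene. All bodies show ZNF274KO libraries above those of WT without overlap, while 11 of the 16 promoters of protein-coding genes do.

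Promoters, taken as 1 kb either side of the start, gave a less even picture. Their difference had a median of 11.98 points and ran from -3.09 at PCDHB11 to 22.2 at PCDHB16. The median was 6.95 points without ZNF274KO 1 and 17.0 points without ZNF274KO 2. The ZNF274KO libraries were above those of WT without overlap at 11 of 16, against 14.2% of 19746 promoters genome-wide. At PCDHB2, PCDHB3, PCDHB8, PCDHB11 and PCDHB12 the groups overlapped. PCDHB15 was the only one of the 16 called in edgeR (0.248% of all promoters were called, 0.187% higher). It rose from 8.17% and 10.03% in WT to 32.6% and 24.8% in ZNF274KO, by 2.005 ± 0.311 on the log2 odds scale (adjusted p = 0.0182), and lost its call without ZNF274KO 1. In limma 0 of 19746 promoters were called, 1088 of them with an unadjusted p below 0.05. Within 500 bases of the start of PCDHB15 the difference was -0.275 points and was not called. On simulated promoters with the depths of these libraries the test recovered 0 of 200 changes of 20 points and 198 of 200 of 40 points. The simulation gave every library the same spread around its level, so these rates need not hold for the real libraries. PCDHB16, with 25.5% and 28.2% in WT and 58.7% and 39.3% in ZNF274KO, had an edgeR adjusted p of 0.283.

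The promoter values depended on the width of the window. Within 500 bases of the start the median difference fell to 1.33 points, 10 of 16 were higher in the mean and none was called in edgeR (0.00525% of all promoters were called higher). Within 2 kb it was 13.2 points with 16 of 16 higher, and PCDHB10 and PCDHB15 were called, against 0.427% of all promoters called higher. The genes were also aligned on their first coding base. Summed over PCDHB2 to PCDHB16, the 500 bases before the coding sequence had 14.0% and 14.2% in WT and 18.6% and 14.7% in ZNF274KO, a difference of 2.54 points. In the 500 bases that begin 2000 bases before it the levels were 2.23% and 1.98% in WT and 42.1% and 21.8% in ZNF274KO. Between 3000 and 3499 bases after the first coding base, past the end of the coding sequence, they were 12.3% and 8.64% against 61.5% and 35.9%, the largest difference along the profile at 38.2 points.

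**Figure D3:**
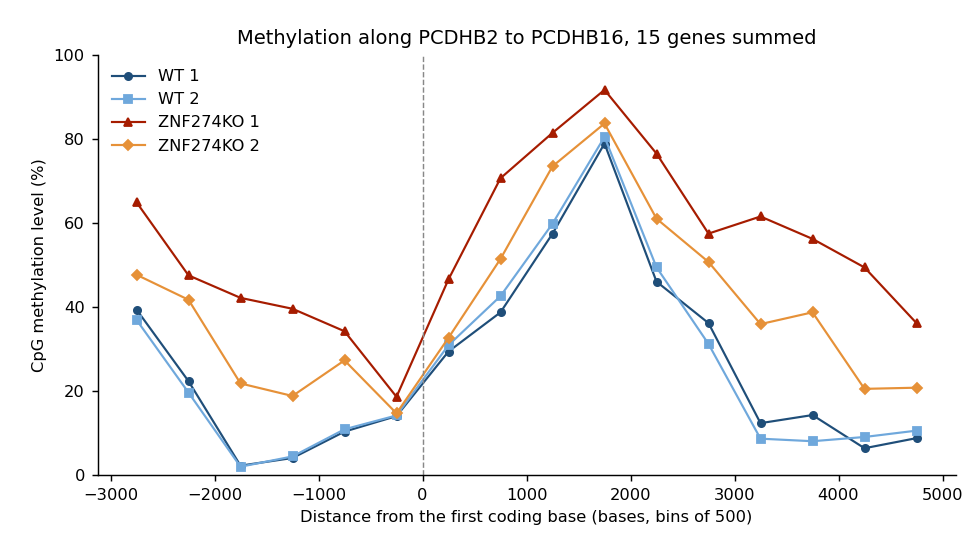
Methylation level (%) of PCDHB2 to PCDHB16 in bins of 500 bases from the first coding base, summed over the 11 to 15 genes with CpGs in a bin; each line is 1 library. The lines meet just before the coding sequence (14.1% ± 0.111 in WT and 16.6% ± 2.78 in ZNF274KO) and are furthest apart past its end.

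From the first coding base onwards WT methylation climbed to a peak and fell again. It was 30.1% ± 1.06 (SD, n = 2) in the first 500 bases, 58.6% ± 1.68 between 1000 and 1499, 79.6% ± 1.11 between 1500 and 1999 and 47.7% ± 2.41 between 2000 and 2499. The last of these bins is not coding throughout, since the coding sequences of these genes are 2328 to 2403 bases long. The peak bin held 805 of the CpGs, the most of any bin. In ZNF274KO the same bins stood at 39.6% ± 9.83, 77.4% ± 5.63, 87.6% ± 5.65 and 68.7% ± 10.9. The difference was 7.98 points in the peak bin, against 18.8 and 21.0 points in the bins on either side. In the coding sequences of these 15 genes between 48.8% and 82.1% of the CpGs were unique over 100 bases, so part of the reads in these bins could come from another gene of the family.

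The CpG of the shared sequence GTGGCGCT had a low level in all 4 libraries. Summed over the 16 starts, 2 of 173 reads were methylated in WT 1 (1.16%), 8 of 140 in WT 2 (5.71%), 6 of 155 in ZNF274KO 1 (3.87%) and 5 of 130 in ZNF274KO 2 (3.85%). The 95% Wilson intervals were 0.318% to 4.12%, 2.92% to 10.9%, 1.79% to 8.19% and 1.65% to 8.69%, and cover counting error only. The groups overlapped, with a difference of 0.423 points (exact permutation p = 1.0). All 16 CpGs were unique over 50 bases. At 12 of the 16 starts no read was methylated in any library, although each had between 3 and 20 reads a library and a lower share could not be seen there.

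PCDHB4 was the exception, with 2 of 9 and 8 of 12 reads methylated in WT and 4 of 5 and 4 of 11 in ZNF274KO. With PCDHB4 left out, none of 164 and none of 128 reads were methylated in WT, which allows a share of up to 1.83% and 2.34% when the limit is set at 3 reads of the total, while the upper ends of the 95% Wilson intervals are 2.29% and 2.91%. In ZNF274KO there were 2 of 150 and 1 of 119, at PCDHB17P and PCDHB14 in ZNF274KO 1 and at PCDHB7 in ZNF274KO 2.

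The low level extended over the surroundings. CpGs within 100 bases of the shared sequence, that CpG left out, had 8.73% and 13.1% in WT and 13.6% and 10.8% in ZNF274KO, and the groups overlapped. Between 200 and 1000 bases before it, away from the gene, the levels were 10.3% and 9.63% in WT and 41.7% and 28.7% in ZNF274KO, a difference of 25.3 points. Between 200 and 1000 bases after it they were 30.8% and 34.5% in WT and 53.8% and 37.5% in ZNF274KO, a difference of 12.96 points. Before the genes the gap between the outer zone and the CpGs within 100 bases was 1.54 and -3.43 points in WT and 28.2 and 17.9 points in ZNF274KO, with no overlap (exact permutation p = 0.333). In WT the sequence before the starts was low in both zones, and in ZNF274KO it was low near the shared sequence and higher further out.

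**Figure D4:**
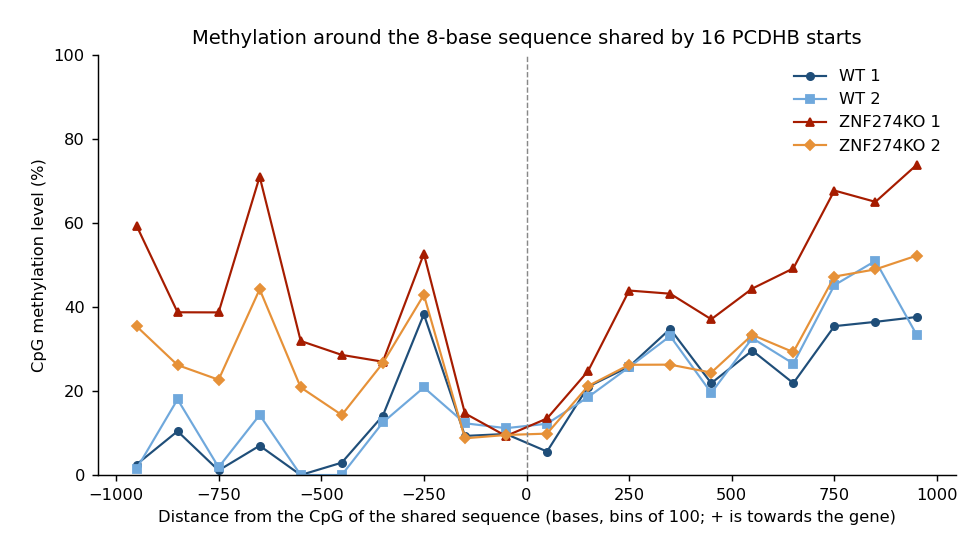
Methylation level (%) in bins of 100 bases around the CpG of GTGGCGCT, 16 PCDHB starts summed; each line is 1 library and positive distances run into the gene. The 4 lines meet within 100 bases of the CpG, and before it both ZNF274KO libraries exceed both WT libraries in the bins beyond 200 bases.

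The sequences before the annotated start of the genes with the largest and the smallest promoter difference are given for their single CpGs. They are the 300 bases before PCDHB16 (chr5:140561662-140561961) and before PCDHB11 (chr5:140578883-140579182), on the plus strand of GRCh37 with CG pairs in capitals.
PCDHB16: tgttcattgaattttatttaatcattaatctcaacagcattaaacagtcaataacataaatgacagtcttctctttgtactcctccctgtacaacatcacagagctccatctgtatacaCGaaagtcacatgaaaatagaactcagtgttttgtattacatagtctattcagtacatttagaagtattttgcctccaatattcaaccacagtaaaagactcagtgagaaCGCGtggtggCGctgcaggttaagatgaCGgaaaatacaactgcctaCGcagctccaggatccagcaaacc
PCDHB11: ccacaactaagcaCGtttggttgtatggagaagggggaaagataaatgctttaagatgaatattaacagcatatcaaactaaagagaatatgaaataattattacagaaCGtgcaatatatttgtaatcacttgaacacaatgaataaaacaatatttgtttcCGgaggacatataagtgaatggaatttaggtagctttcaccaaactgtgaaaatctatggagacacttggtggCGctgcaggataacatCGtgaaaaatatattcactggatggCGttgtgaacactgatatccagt
In the PCDHB16 stretch the level was 3.45% and 2.13% in WT and 7.02% and 7.14% in ZNF274KO, a difference of 4.29 points without overlap, smaller than over the wider promoter. Its 6 CpGs held only 58, 47, 57 and 56 reads in the same order, so a few methylated reads make this difference. At PCDHB11 1 CpG stood apart from its neighbours. The third of its 6 CG pairs, 164 bases into the stretch, had 13 of 19 and 7 of 12 reads methylated in WT and 11 of 18 and 4 of 9 in ZNF274KO, while the fourth, in the shared sequence, had none of 13, 11, 12 and 13.

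In 2 kb tiles the difference ran through nearly the whole interval. Of the 125 tiles, 119 passed the minimum of 5 CpGs and 20 reads a library, and 46 of them were called in edgeR's test over 1357123 tiles of the genome, all 46 higher, against 0.451% of all tiles called and 0.432% called higher. The level was higher in the mean in 113 of 119, and the ZNF274KO libraries were above those of WT without overlap in 96, against 14.6% of all tiles. The median difference was 16.6 points in the interval and -0.478 genome-wide. In the interval it was 9.01 points without ZNF274KO 1 and 23.8 points without ZNF274KO 2. In 58 of the 119 tiles the WT mean was below 10%. ZNF274KO 1 was above ZNF274KO 2 in 113 tiles, with median levels of 42.2% and 22.4%. Without ZNF274KO 1, 19 tiles were called, all of them among the 46, against 3542 of all tiles. Without ZNF274KO 2, 74 were called against 6772, and the fit to all libraries called 6127. With limma 7 of the 119 were called, against 0.095% of all tiles called higher.

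Tiles were also set out by their number of CpGs. The median difference was 19.96 points in the 48 tiles with fewer than 15 CpGs, of which 21 were called, and 13.7 points in the 24 tiles with at least 50 CpGs, of which 5 were called. The WT medians of these tiles were 1.67% and 59.5%, and the difference between the 2 kinds of tile was not tested. Tiles that overlap a PCDHB gene or pseudogene had a median difference of 15.8 points (18 of 52 called) and the others 17.7 points (28 of 67 called).

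**Figure D5:**
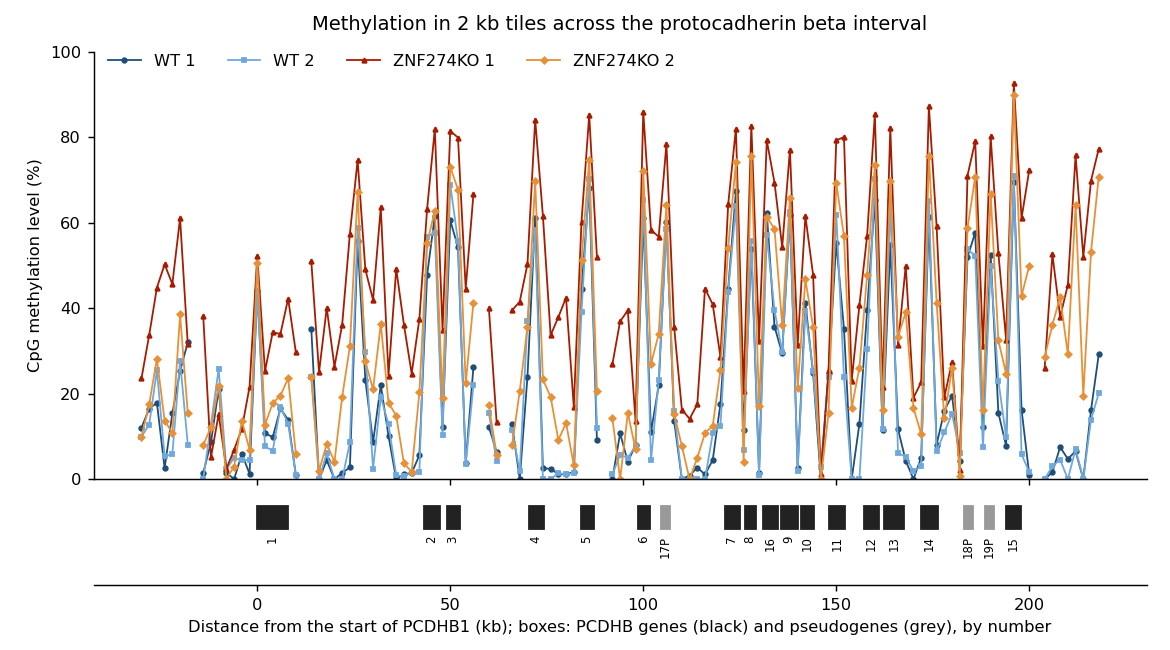
Methylation level (%) of 119 tiles of 2 kb against their distance from the start of PCDHB1 in kb; each line is 1 library, breaks are tiles with too few CpGs or reads, and boxes mark genes and pseudogenes by number. WT lines fall close to 0 in many tiles between the genes. A tile away from the PCDHB genes, chr5:140456001-140458000, stands at 55.8% and 58.9% in WT. ZNF274KO lines lie above those of WT in most tiles, and past PCDHB15 both ZNF274KO lines lie above both WT lines in every tile shown.

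The 5 largest rises lay at the end of PCDHB14 and past PCDHB15, towards the gamma cluster. The tile chr5:140642001-140644000 rose from 6.55% and 6.96% in WT to 75.8% and 64.1% in ZNF274KO, by 63.2 points (edgeR adjusted p = 9.58e-09). The tile chr5:140630001-140632000, just past the end of PCDHB15, rose from 1.01% and 1.56% to 72.4% and 50% (adjusted p = 4.26e-06 in edgeR), on 6 CpGs that are all unique over 100 bases. The tiles chr5:140648001-140650000 and chr5:140646001-140648000 rose by 49.5 and 46.5 points. The last of the 5, chr5:140606001-140608000, overlaps the end of PCDHB14 and rose from 8.05% and 6.48% to 59.2% and 41.3%, by 43.0 points (edgeR adjusted p = 9.19e-06).

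The 5 largest falls were small and none was called. The tile chr5:140420001-140422000, before PCDHB1, had 21.1% and 25.8% in WT and 15.2% and 21.9% in ZNF274KO, a difference of -4.90 points (edgeR adjusted p = 0.896). The tile chr5:140578001-140580000 at the start of PCDHB11 had 24.9% and 24% in WT and 25.5% and 15.4% in ZNF274KO. The remaining 3, at chr5:140612001-140614000, chr5:140418001-140420000 and chr5:140576001-140578000, differed by -3.79, -2.06 and -0.753 points. In 1 tile of the interval, chr5:140612001-140614000 before PCDHB18P, the ZNF274KO libraries (2.19% and 0.719%) were lower than those of WT (4.29% and 6.19%) without overlap.

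The stretch past PCDHB15 differed from the rest. From the end of PCDHB15 to the end of the interval, its 128 CpGs had 10.7% and 9.46% in WT and 63.5% and 50.2% in ZNF274KO, a difference of 46.7 points. The 583 CpGs between the genes from PCDHB2 to PCDHB15 had nearly the same WT levels, 8.38% and 8.42%, but 34.4% and 16.9% in ZNF274KO. The difference between these 2 kinds of sequence was 2.32 and 1.04 points in the WT libraries and 29.1 and 33.3 points in the ZNF274KO libraries, a difference of 29.5 points with no overlap (exact permutation p = 0.333). Here ZNF274KO 2 lay 40.1 points above the WT mean and ZNF274KO 1 53.4 points. Between the genes they lay 8.50 and 26.004 points above it.

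At the other end, the 227 CpGs before PCDHB1 had 14.6% and 15.6% in WT and 30.3% and 18.6% in ZNF274KO, a difference of 9.36 points, the smallest of the parts. There ZNF274KO 2 lay 3.50 points above the WT mean. The 354 CpGs between PCDHB1 and PCDHB2 had 19.1% and 19.8% against 47.6% and 28.4%. ENSG00000279983, a protein-coding model that spans PCDHB14 to the start of PCDHB15, had 42.2% and 41.7% in WT and 64.3% and 52.0% in ZNF274KO (edgeR adjusted p = 0.0275), over sequence it shares with those genes. The long noncoding RNA PCDHB1-AS1, antisense to PCDHB1, had 25.8% and 27.2% against 48.7% and 34.3%. It spans PCDHB1, the sequence from there to PCDHB2 and the start of PCDHB2, and so shares their CpGs. The noncoding model ENSG00000288892 before PCDHB1 was the only annotated gene of the interval with a lower mean, 16.03% and 27.0% in WT and 12.4% and 25% in ZNF274KO, and the groups overlapped. In the other 14 models the groups did not overlap. Those that overlap PCDHB genes or pseudogenes, and so share their CpGs, are ENSG00000272154, ENSG00000280029, ENSG00000290893, ENSG00000279472, ENSG00000279068, ENSG00000278936, ENSG00000279375, ENSG00000290895 and the noncoding PCDHB18P model, with differences from 11.9 points at ENSG00000279375 to 23.6 points at ENSG00000290895. Away from them lie ENSG00000279558 (19.7 points), ENSG00000289752 (29.7), ENSG00000272108 (30.2), ENSG00000280336 (32.4) and ENSG00000277795 (38.7), and the last 4 hold between 4 and 13 CpGs each.

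TAF7, which encodes a subunit of the general transcription factor TFIID, begins beyond the interval and runs back into it. It spans chr5:140639452-140700351. It therefore shares CpGs with the stretch past PCDHB15, with the tiles that begin at 140642001, 140646001 and 140648001, and with the 50 kb past the interval. Its body had 31.6% and 29.5% in WT and rose to 69.8% and 60.6% in ZNF274KO (edgeR adjusted p = 3.62e-06), while its promoter, outside the interval, had 11.3% and 8.03% in WT and 7.10% and 7.19% in ZNF274KO and was not called (edgeR adjusted p = 0.901). SLC25A2, a mitochondrial ornithine carrier gene without introns in the next 50 kb, rose from 66.2% and 57.9% to 87.7% and 83.7% (edgeR adjusted p = 0.00334). Of 24 protein-coding genes other than clustered protocadherins within 0.5 Mb, the bodies of ENSG00000279983, TAF7 and SLC25A2 were called higher and none lower, with a median difference over the 24 of -0.961 points. These 3 calls are not independent, since SLC25A2 lies inside the TAF7 body and ENSG00000279983 overlaps PCDHB genes. Over the genome 0.888% of bodies were called higher. DIAPH1, past the gamma cluster, had 81.7% and 79.4% in WT and 79.4% and 79.6% in ZNF274KO, and ZMAT2, before the alpha cluster, 40.8% and 41.8% against 38.5% and 37.5%.

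The alpha and gamma clusters, which flank the beta genes and whose genes splice to shared constant exons, had smaller differences over their whole spans. The span of the PCDHA genes had 51.0% and 52.9% in WT and 65.1% and 54.4% in ZNF274KO, a difference of 7.80 points. The span of the PCDHG genes had 57.4% and 57.8% against 69.8% and 63.3%, a difference of 8.90 points. The level of the beta interval minus that of the alpha span was -12.7 and -14.6 points in WT and -4.49 and -6.05 points in ZNF274KO, so that its difference was larger by 8.40 points. Against the gamma span it was larger by 7.29 points, and in neither comparison did the genotypes overlap (exact permutation p = 0.333 for each of the 2). The gap was wider just beside the beta interval: the 50 kb past it towards the gamma cluster had 36.7% and 35.01% in WT and 74.3% and 64.6% in ZNF274KO, a difference of 33.6 points. All of these 50 kb lie within the TAF7 body, so this value and that of TAF7 share CpGs. Of the 15 PCDHA bodies 1 was called higher, PCDHAC2, the one nearest the beta genes, with 22.3% and 20.9% in WT and 55.7% and 31.8% in ZNF274KO (edgeR adjusted p = 0.0348), a difference of 22.1 points, where the PCDHB bodies reached 19.7. PCDHAC1 differed by 16.3 points and was not called. Of the 22 PCDHG bodies 13 were called higher, against 0.888% of all bodies. However, PCDHA and PCDHG bodies are nested, since each runs to the same last exon, and count the same CpGs many times over. Of their promoters, which do not nest, none of 15 and 1 of 22 were called in edgeR, against 0.248% of all promoters. Of the PCDHA promoters 9 of 15 were higher in the mean, with a median difference of 3.11 points, and that of PCDHAC1 had 45.2% and 47.2% in WT and 32.6% and 33.5% in ZNF274KO, lower without overlap (edgeR adjusted p = 0.734). Of the PCDHG promoters 21 of 22 were higher, with a median of 7.72 points, and the one called was PCDHGC5, with 28.9% and 31.5% in WT and 64.1% and 55% in ZNF274KO (edgeR adjusted p = 0.0224).

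Protocadherins outside the clusters, 12 genes on several chromosomes, had no body or promoter called in either direction, and their bodies had a median difference of -0.702 points. Among 20 genes known to act on clustered protocadherin choice or on DNA methylation, among them CTCF, SMCHD1, SETDB1, TRIM28, DNMT1, DNMT3A, DNMT3B and the TET genes, no body or promoter was called in edgeR. Their bodies had a median difference of -0.472 points and ranged from -2.62 to 2.71. Over the genome 0.918% of bodies and 0.248% of promoters were called, so no call is what most lists of 12 or 20 genes would give.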

How the data were processed

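HEK293T cells of 2 genotypes, WT and ZNF274KO, gave 2 EM-seq libraries each, and group and replicate number were taken from the sample titles. Mapping by the authors used Msuite2, which calls hisat2, on hg19 plus rDNA. They deposited read counts of C and T per CpG and strand for each library, unpooled and not normalised. Filters on duplicates and mapping quality are not given in the sources used here. All 3910 CpGs of the interval fell on a CG of GRCh37, and genes came from GENCODE release 44 mapped to that build.

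Methylated (C) and unmethylated (T) reads of both strands were summed over gene bodies, promoters (1000 bases either side of the start) and tiles of 2 kb, each with at least 20 reads and 5 CpGs in every library. They were tested over all regions of the genome with edgeR 4.0.16 (quasi-likelihood test, R 4.3.3), using 1 coefficient per library and Benjamini-Hochberg adjustment at 0.05. The SE of a log2 odds change was taken as its absolute value divided by the square root of that test's F statistic. Parts of the interval were compared by exact permutation. On simulated reads at these depths the test recovered 192 of 200 gene bodies and 72 of 200 tiles changed by 20 points, and 200 and 194 changed by 40 points, in runs on 19828 bodies and 50000 tiles. Unchanged regions called beside them were 20 and 22 bodies and 5 and 7 tiles, so false calls among bodies ran above the nominal threshold. The simulation matched the summed read counts but gave every library the same set spread around its level. It drew these counts independently around that level, although a read that covers several CpGs is counted at each. Over the PCDHB bodies the SD of the real ZNF274KO libraries ran from 3.23 points at PCDHB8 to 11.5 points at PCDHB16. These recovery rates therefore need not hold there. Alternatives were other minimums, tile and promoter sizes, limma 3.58.1 (pseudocount 1), a replicate block, CpG filters and each library left out. Converted stretches of 50 or 100 bases around each CpG were searched in the genome to find those that recur. Python 3.11.15, numpy 2.4.6, pandas 2.3.3 and scipy 1.17.1 were used.

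By rule, the text names the PCDHB genes, other genes annotated in the interval and the 5 tiles with the largest rise and the 5 with the largest fall, and prints the sequence before the genes with the largest and smallest promoter difference; that of PCDHB1 is not reported here. SLC25A2, DIAPH1, ZMAT2, PCDHAC1, PCDHAC2, PCDHGC5 and the shared 8-base sequence were chosen after their values were seen. Members and gene lists were chosen with earlier results of these data known.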

Additional observations from a re-analysis of the deposited data

How the results depend on the processing

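Levels of the interval, the genes, the remaining sequence and their contrasts kept their direction under every alternative run. The difference of the interval ran from 15.9 to 17.4 points over the CpG filters, the unweighted mean and centring, and from 10.1 to 22.3 without 1 library in turn. In the same runs without 1 library, the genes ran from 8.95 to 19.96, the remaining sequence from 10.8 to 27.3, genes against remaining sequence from -7.35 to -1.84, beta against alpha from 7.47 to 9.32 and beta against gamma from 4.41 to 10.2. Counts of calls depended on the setting. Called bodies, 2 of 16, were 0 with limma (57 called genome-wide), 5 with at least 3 reads per CpG (173 of 19700 genome-wide, against 182 of 19828), and 0 to 9 without 1 library (98 to 229 genome-wide). Called promoters, 1 of 16, were 0 with limma (0 of 19746 genome-wide), 0 within 500 bases (1 of 19035), 2 within 2 kb (97 of 19888) and 0 to 3 without 1 library (30 to 97 genome-wide, against 49). Called tiles, 46 of 119, were 7 with limma (1298 genome-wide), 18 of 50 with tiles of 5 kb (2740 of 563514 genome-wide), 7 of 25 with tiles of 10 kb (1424 of 282601) and 19 to 74 without 1 library (3542 to 10696 genome-wide). The causes were not tested, except that larger tiles are fewer. Promoter differences turned negative within 500 bases at PCDHB2 (-2.38), PCDHB6 (-6.24), PCDHB10 (-0.139) and PCDHB15 (-0.275), and at PCDHB12 without WT 2 (-2.29, and up to 9.85 without WT 1). They turned positive at PCDHB11 within 2 kb (8.31) and without ZNF274KO 2 (2.27, and down to -8.44 without ZNF274KO 1), and at PCDHB8 within 2 kb (13.2), without WT 2 (0.677), without ZNF274KO 2 (4.83, and down to -6.84 without ZNF274KO 1), in the unweighted mean (3.03) and without recurring CpGs over 50 (7.80) or 100 bases (8.42).

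The labels do not say that replicate numbers pair libraries, and same-numbered libraries did not deviate together (correlation of deviations -0.0312 over bodies and -0.0698 over tiles). With the replicate number as a block, 13 bodies, 3 promoters and 71 tiles were called, and the counts over the whole genome rose too, from 182, 49 and 6127 to 280, 159 and 8742. With the numbers crossed, a setting added after seeing the data like the 100-base filter, 12, 3 and 72 were called, against 265, 160 and 11070 genome-wide. A median of 7 to 9 reads per CpG limits statements on single CpGs, and 2 libraries a genotype limit every test.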
